A study of Mus musculus with 20 samples.

Results

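Striatal projection neurons are followed here through 7 genes, *Drd1*, *Drd2*, *Adora2a*, *Penk*, *Ppp1r1b*, *Rgs9* and *Six3*, in cortex and hippocampus, which are not the tissue these neurons belong to. The genes were found by their symbols, and all 7 were among the 47729 genes of each count file. The data were RNA-Seq counts from 10 C57Bl/6J pups at P7, 5 WT (mice 1 to 5) and 5 labelled *Ube3a*OE (mice 6 to 10), each of which gave 1 cortex and 1 hippocampus library, 20 in all. The *Ube3a*OE animals carried a bacterial artificial chromosome, inserted into the genome, that holds mouse *Ube3a* and the sequence around it. Their group is called *Ube3a*+2 here. The labels name no other allele or treatment for any group. The extra gene came with its surrounding sequence rather than a cell-type promoter, and the place of insertion and the extra *Ube3a* cannot be told apart. The study asked whether extra UBE3A, a ubiquitin ligase, changes transcript levels in the developing brain.

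Projection neurons make up most of the striatum and send GABAergic axons out of it along a pair of routes. Direct pathway neurons carry the dopamine receptor *Drd1* and favour movement, whereas indirect pathway neurons carry *Drd2* and the adenosine receptor *Adora2a*, release the opioid peptides made from *Penk*, and hold movement back. Both kinds contain *Ppp1r1b* (DARPP-32), a phosphatase inhibitor switched by cAMP, and *Rgs9*, a regulator that shortens G protein signalling. Cortex and hippocampus have neurons of their own that use some of these genes, such as *Drd1* and *Ppp1r1b* in deep cortical layers and *Penk* in some interneurons.

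Each library held between 14191093 and 16752326 counts on genes. Levels are given as CPM, the counts of a gene scaled to one common library size with TMM factors. *Ube3a* lay between 54.4 and 76.7 CPM in the WT libraries and between 129 and 194 in the *Ube3a*+2 libraries of both tissues, so the genotype labels held in every library. Sex-linked transcripts went against the labelled sex in 2 mice, both WT, in both tissues. Tissue labels were checked with 8 genes of neocortical neurons, whose summed level was 1765 to 2777 CPM in cortex and 327 to 1104 in hippocampus, and 8 of hippocampal neurons, at 206 to 377 CPM in cortex and 498 to 788 in hippocampus. WT mouse 2 had the highest neocortical sum of the hippocampus libraries, and *Ube3a*+2 mice 8 and 9 had the lowest neocortical sums (1765 and 1868 CPM) and the highest hippocampal sums (377 and 335 CPM) of the cortex libraries. The hippocampus library of *Ube3a*+2 mouse 9 stood far from the other 9 in all 7 genes but *Six3*, in which it was also the highest. Most tests of the 7 genes between groups are given with and without that library.

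Per kilobase of exon, *Ppp1r1b* was the most abundant of the 7 in WT cortex, at 13.7 ± 7.66 CPM per kb (SD, n = 5), followed by *Penk* at 8.44 ± 2.88, *Drd1* at 5.02 ± 1.28, *Rgs9* at 3.86 ± 0.762, *Adora2a* at 2.29 ± 1.10, *Drd2* at 0.515 ± 0.327 and *Six3* at 0.0664 ± 0.0798. The WT ranges of neighbours in this order overlapped down to *Adora2a*, while *Adora2a* (lowest library 1.34) lay above *Drd2* (highest 1.04) and *Drd2* (lowest 0.264) above *Six3* (highest 0.164). In WT hippocampus the order was *Penk* at 8.30 ± 0.607 CPM per kb (SD, n = 5), *Ppp1r1b* at 4.53 ± 0.874, *Rgs9* at 3.15 ± 0.395, *Adora2a* at 1.55 ± 0.299, *Drd1* at 1.39 ± 0.328, *Drd2* at 1.16 ± 0.0766 and *Six3* at 0.132 ± 0.239. There *Penk* stood clear of *Ppp1r1b*, *Rgs9* of *Adora2a* and *Drd2* of *Six3*, and the other neighbours overlapped.

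On GRCm38 the genes lie on 6 chromosomes. *Adora2a* is at chr10:75316877-75334784, *Drd2* at chr9:49340627-49408177, *Six3* at chr17:85613608-85629302 and *Ppp1r1b* at chr11:98348404-98357796, all on the plus strand, and *Rgs9* at chr11:109225355-109298129, *Drd1* at chr13:54051183-54055705 and *Penk* at chr4:4133531-4138819, on the minus strand. Promoters from RefSeq (GRCm38.p6) were matched for 4 of the 7, *Drd1*, *Drd2*, *Rgs9* and *Six3*. The 250 bases before a start are shown for *Drd1* and *Drd2*, which differed between the tissues in opposite directions, and for *Six3*, which had a pattern of its own. Capitals mark 3 motifs searched on both strands, which do not overlap in these windows, TATAAA (in 12.4% of 32851 promoters), CCAAT (33.8%) and GGGCGG (32.7%); a match on the other strand is capitalised as its reverse complement.
Drd1, chr13:54054781-54055030, minus strand: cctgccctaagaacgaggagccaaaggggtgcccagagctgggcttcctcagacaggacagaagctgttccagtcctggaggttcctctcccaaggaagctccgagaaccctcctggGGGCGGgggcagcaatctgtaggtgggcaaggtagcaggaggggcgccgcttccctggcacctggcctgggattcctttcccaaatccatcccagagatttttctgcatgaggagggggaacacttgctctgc
Drd2, chr9:49340153-49340402, plus strand: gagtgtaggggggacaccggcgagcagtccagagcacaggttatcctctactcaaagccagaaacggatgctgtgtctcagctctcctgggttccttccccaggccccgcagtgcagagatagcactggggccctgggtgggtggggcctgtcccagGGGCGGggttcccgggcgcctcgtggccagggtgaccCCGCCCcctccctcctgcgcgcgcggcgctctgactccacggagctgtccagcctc
Six3, chr17:85620584-85620833, plus strand: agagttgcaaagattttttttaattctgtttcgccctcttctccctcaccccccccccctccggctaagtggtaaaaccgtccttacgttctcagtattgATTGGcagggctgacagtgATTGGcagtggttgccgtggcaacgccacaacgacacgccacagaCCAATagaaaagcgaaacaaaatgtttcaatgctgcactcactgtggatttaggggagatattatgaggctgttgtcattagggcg

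*Six3* held 3 CCAAT matches, *Drd2* held 2 of GGGCGG, the *Rgs9* promoter, not shown, held 1 of each of the 3 motifs, and *Drd1* held 1 of GGGCGG at its second start and none of the 3 at its first. The cAMP response motif TGACGTCA, present in 1.55% of all promoters, was in none of the windows, and neither was its shorter form TGACG, present in 17.8%. These are letter matches only.

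*Drd1*, the stimulatory dopamine receptor of the direct pathway, was far higher in cortex than in hippocampus. The WT cortex libraries held 17.7, 12.3, 25.2, 17.1 and 18.7 CPM (mice 1 to 5) and the *Ube3a*+2 cortex libraries 19.0, 19.8, 11.7, 19.7 and 20.2 CPM (mice 6 to 10). In hippocampus the WT libraries held 3.81, 6.76, 5.36, 5.28 and 4.04 CPM and the *Ube3a*+2 libraries 3.33, 3.74, 5.85, 33.3 and 4.61 CPM. Hippocampus was below cortex in 9 of 10 mice, and only in mouse 9 was it above, by a ratio of 1.69. Across all 20 libraries the log2 fold change of hippocampus over cortex was -1.35 (SE 0.36, edgeR, adjusted *P* = 0.00440), and without the hippocampus library of mouse 9 it was -1.94 (SE 0.15, edgeR, adjusted *P* = 4.36e-09). Fewer cells of a type and less RNA per cell cannot be told apart in such bulk samples. In cortex, mouse 8 was the lowest in *Drd1*, with WT mouse 2 next.

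*Drd2*, the inhibitory dopamine receptor of the indirect pathway, went the other way. WT cortex held 1.59, 0.672, 2.65, 0.769 and 0.871 CPM and *Ube3a*+2 cortex 1.65, 0.904, 1.85, 3.23 and 1.83 CPM. WT hippocampus held 2.99, 3.26, 2.90, 2.76 and 2.83 CPM, a spread of 6.63% around the mean. The counts there were 47 to 53 per library, where counting error alone can exceed that spread, so it does not show a steady level. *Ube3a*+2 hippocampus held 2.26, 2.65, 3.31, 16.8 and 4.91 CPM. All 10 mice had more *Drd2* in hippocampus than in cortex, with a median ratio of 2.81. The log2 fold change of hippocampus over cortex was 1.40 (SE 0.36, edgeR, adjusted *P* = 0.00338), and 0.98 (SE 0.24, edgeR, adjusted *P* = 0.00183) without the hippocampus library of mouse 9. These values rest on 9 to 53 counts per cortex library, where counting error is large, and on 38 to 261 in hippocampus.

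*Adora2a*, the adenosine receptor that opposes *Drd2* in indirect pathway neurons, formed separate ranges in cortex. WT mice 1 and 3 were at 10.3 and 11.1 CPM, against 4.26, 5.45 and 4.11 in WT mice 2, 4 and 5. *Ube3a*+2 mice 6 and 9 were at 8.76 and 16.0 CPM, against 5.10, 4.71 and 5.57 in mice 7, 8 and 10. No cortex library lay between 5.57 and 8.76 CPM, and both genotypes had mice on each side. Hippocampus was even apart from 1 library, with 4.45, 3.44, 4.80, 5.91 and 5.19 CPM in WT and 5.12, 4.46, 4.49, 64.2 and 5.33 CPM in *Ube3a*+2 mice. The tissues did not pass the test over 20 libraries (log2 fold change 0.24, SE 0.50, edgeR, adjusted *P* = 0.715), and without the hippocampus library of mouse 9 *Adora2a* was lower in hippocampus (-0.64, SE 0.24, edgeR, adjusted *P* = 0.0376).

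*Penk*, the precursor of the enkephalins, had the smallest spread around its mean in WT hippocampus after *Drd2*. WT hippocampus held 14.2, 12.0, 13.2, 14.3 and 14.1 CPM and *Ube3a*+2 hippocampus 15.7, 14.0, 14.3, 142 and 12.2 CPM. Cortex varied more, with 12.6, 15.2, 21.0, 8.27 and 11.9 CPM in WT and 9.33, 8.27, 14.5, 30.1 and 8.67 CPM in *Ube3a*+2 mice. Mouse 9 was the highest in both tissues. Hippocampus and cortex did not pass the test (log2 fold change 0.73, SE 0.45, edgeR, adjusted *P* = 0.193), and the estimate without the hippocampus library of mouse 9 was -0.01 (SE 0.22, edgeR, adjusted *P* = 0.976).

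*Ppp1r1b*, the cAMP-switched inhibitor of protein phosphatase 1, had the widest absolute spread in cortex. WT cortex held 43.2, 16.8, 76.2, 28.6 and 35.1 CPM and *Ube3a*+2 cortex 51.5, 38.4, 9.48, 64.6 and 45.1 CPM. The lowest pair, mouse 8 and WT mouse 2, was also the lowest in *Drd1* and *Rgs9*. WT hippocampus held 14.0, 9.84, 14.3, 11.7 and 16.5 CPM and *Ube3a*+2 hippocampus 12.9, 12.0, 11.3, 218 and 9.82 CPM. In 8 of 10 mice hippocampus was below cortex. The difference did not pass in the fit without the mouse as a block (log2 fold change -0.63, SE 0.57, edgeR, adjusted *P* = 0.379). It passed with the mouse number as replicate block (-1.12, SE 0.42, edgeR, adjusted *P* = 0.0460) and without the hippocampus library of mouse 9 (-1.72, SE 0.31, edgeR, adjusted *P* = 0.000202).

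*Rgs9*, which speeds the inactivation of G proteins downstream of the dopamine receptors, was the least variable of the 7 in cortex. WT cortex held 26.2, 20.2, 32.5, 22.5 and 22.02 CPM and *Ube3a*+2 cortex 27.3, 25.0, 18.1, 31.3 and 20.6 CPM. WT hippocampus held 22.8, 22.8, 19.3, 18.1 and 17.5 CPM and *Ube3a*+2 hippocampus 17.7, 19.5, 21.1, 56.0 and 23.9 CPM. The tissues overlapped apart from mouse 9, whose hippocampus exceeded every other library. Without that mouse hippocampus ran from 17.5 to 23.9 CPM and cortex from 18.1 to 32.5. The log2 fold change of hippocampus over cortex was -0.06 (SE 0.18, edgeR, adjusted *P* = 0.803), and -0.26 (SE 0.10, edgeR, adjusted *P* = 0.0425) without the hippocampus library of mouse 9.

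*Six3*, a transcription factor needed for indirect pathway neurons and used earlier in forebrain and eye development, was close to absent from cortex and present in 4 hippocampus libraries. Cortex held 0.892, 0.0747, 0.777, 0.0641 and 0 CPM in WT and 0.317, 0.0646, 0.119, 1.22 and 0.126 CPM in *Ube3a*+2 mice, from 0 to 20 counts. WT hippocampus held 0.176, 0.0615, 0.246, 3.04 and 0.0577 CPM and *Ube3a*+2 hippocampus 0.0595, 8.02, 0.472, 14.0 and 8.68 CPM. Mice 4, 7, 9 and 10 were thus the high ones, 1 WT and 3 *Ube3a*+2. *Six3* was higher in hippocampus over 20 libraries (log2 fold change 2.51, SE 0.92, edgeR, adjusted *P* = 0.0308). The call was lost without mouse 4 (1.19, adjusted *P* = 0.453 in edgeR), mouse 7 (2.32, 0.0666), mouse 10 (2.32, 0.0707) or the hippocampus library of mouse 9 (2.25, 0.0520), and without the filter on low counts (2.51, 0.0614). Exons of *Six3* share 106 bases with the antisense gene *Six3os1*, which had 0 to 113 counts, and reads of the pair cannot be told apart without the strand setting of the counting.

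**Figure D1:**
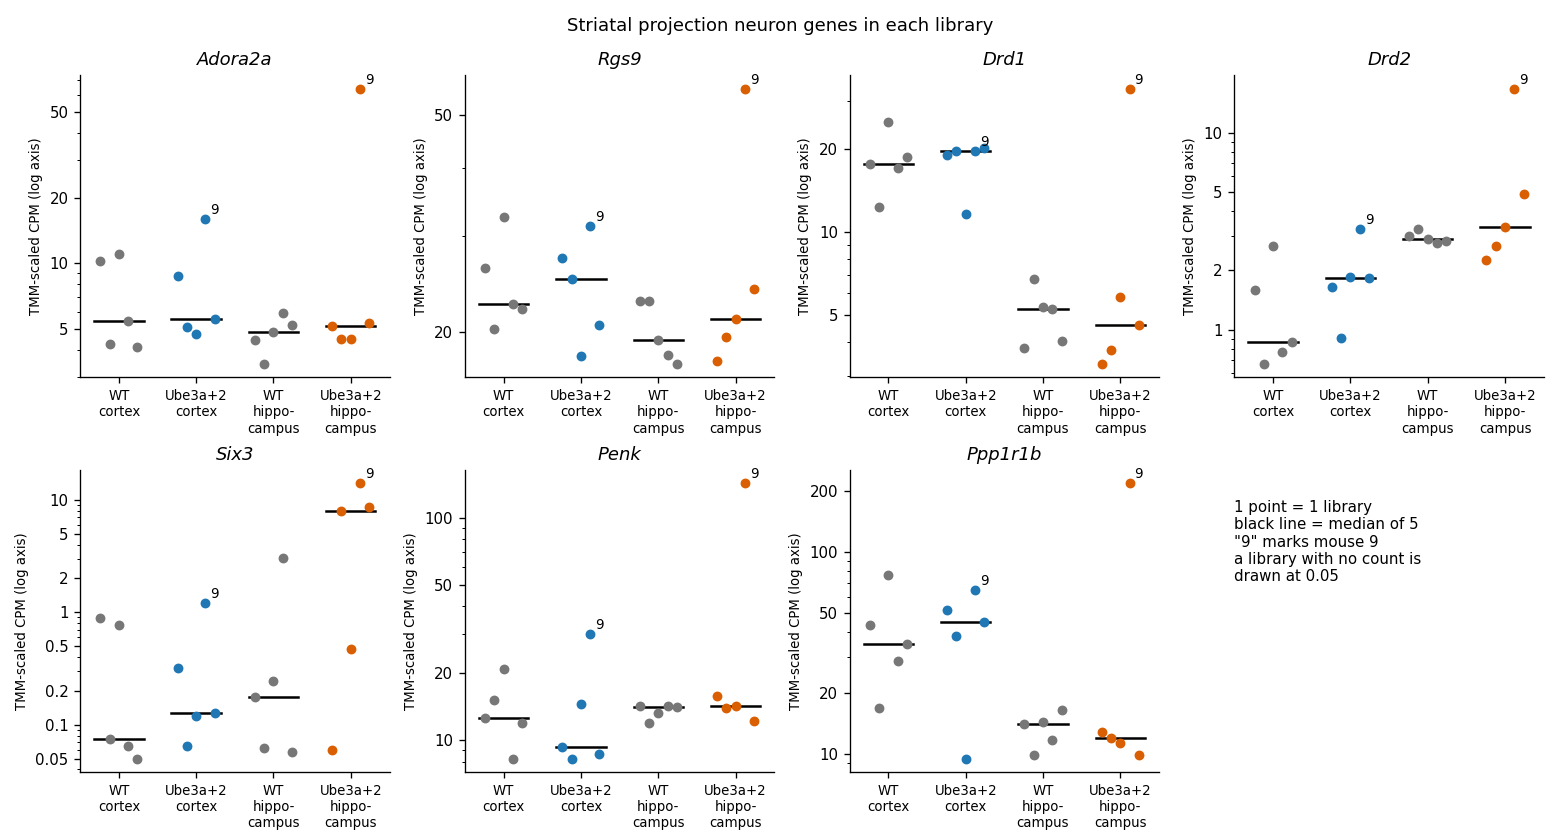
Level of each of the 7 genes in each of the 20 libraries, in CPM scaled by TMM factors on a log axis, by tissue and genotype; each point is 1 library, the black line is the median of 5 and the number 9 marks mouse 9. In hippocampus mouse 9 lies at 64.2 CPM for *Adora2a* and 218 for *Ppp1r1b*, where the other 9 libraries reach 5.91 and 16.5.

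Between the genotypes, none of the 7 genes passed the test in either tissue. *Six3* fell below the filter on low counts in both single-tissue fits, so 6 of the 7 were tested, and 0 of 6 passed in cortex, where 1 of 14947 genes (0.00669%) did, and 0 of 6 in hippocampus, where 1 of 15220 (0.00657%) did (edgeR, adjusted *P* under 0.05). At an unadjusted *P* under 0.05, 0 of the 6 passed in either of these fits, against 663 of all genes in cortex and 1098 in hippocampus. With all 20 libraries fitted together, 5 of the 7 had an unadjusted *P* under 0.05 in hippocampus, against 1558 of 15661 genes (edgeR). Their smallest adjusted *P* there was 0.400 (edgeR). This joint fit estimates the spread from both tissues, and its genotype result is given only with the hippocampus library of mouse 9. In the fit of hippocampus alone without mouse 9, 0 of 6 had an unadjusted *P* under 0.05, against 797 of 15331 genes (edgeR). In cortex that joint fit gave 0 of the 7, against 681 genes. DESeq2 called 0 of the 7 in cortex and 0 of the 3 it tested in hippocampus, 1 of which had an unadjusted *P* under 0.05. In cortex the log2 fold changes of *Ube3a*+2 over WT ran from -0.01 for *Rgs9* and *Drd1* to 0.53 for *Drd2*, whose 95% interval was -0.34 to 1.39, and the interval for *Drd1* was -0.42 to 0.39. *Adora2a*, *Penk* and *Ppp1r1b* lay between, at 0.19, 0.05 and 0.06. The widest of these intervals, that of *Ppp1r1b* at -1.13 to 1.25, leaves room for more than a doubling either way.

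In hippocampus the 6 estimates were all above 0, from 0.46 for *Rgs9* to 1.98 for *Ppp1r1b* (SE 1.03, edgeR, adjusted *P* = 0.681), with mouse 9 as the highest library in each. Without that mouse, with 4 *Ube3a*+2 libraries left, they ran from -0.21 for *Ppp1r1b* to 0.16 for *Drd2*, with *Adora2a* at 0.03, *Rgs9* at 0.04, *Penk* at 0.05 and *Drd1* at -0.20. DESeq2 withheld a *P* value from *Adora2a*, *Drd1*, *Penk* and *Ppp1r1b* in this comparison because it counted a library as an outlier there. In the test of whether the genotype difference differed between the tissues, 0 of 15661 genes passed (0%), 590 had an unadjusted *P* under 0.05 in edgeR and 740 in DESeq2. None of the 7 genes was among the former, and none of the 6 that DESeq2 tested, all but *Penk*, among the latter. *Six3* could be tested there and had an estimate of 3.06 (SE 1.96, edgeR, adjusted *P* = 0.997).

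Between the tissues, 3 of the 7 genes passed, 2 of them higher in hippocampus (*Drd2* and *Six3*) and 1 higher in cortex (*Drd1*), where 50.9% of the 15661 genes tested passed, 25.3% as higher in hippocampus and 25.6% as higher in cortex. A share of 3 in 7 is thus near that of all genes. With the mouse number as replicate block, which compares each hippocampus with the cortex of its own animal, 4 of the 7 passed, *Ppp1r1b* being the addition, against 55.8% of all genes (27.4% higher in hippocampus and 28.4% in cortex). Without the hippocampus library of mouse 9, an alternative added after its values were seen, 5 passed, *Drd1*, *Ppp1r1b*, *Adora2a* and *Rgs9* as lower in hippocampus and *Drd2* as higher, against 50% of the 15774 genes tested (25.9% higher in hippocampus and 24.1% in cortex).

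**Figure D2:**
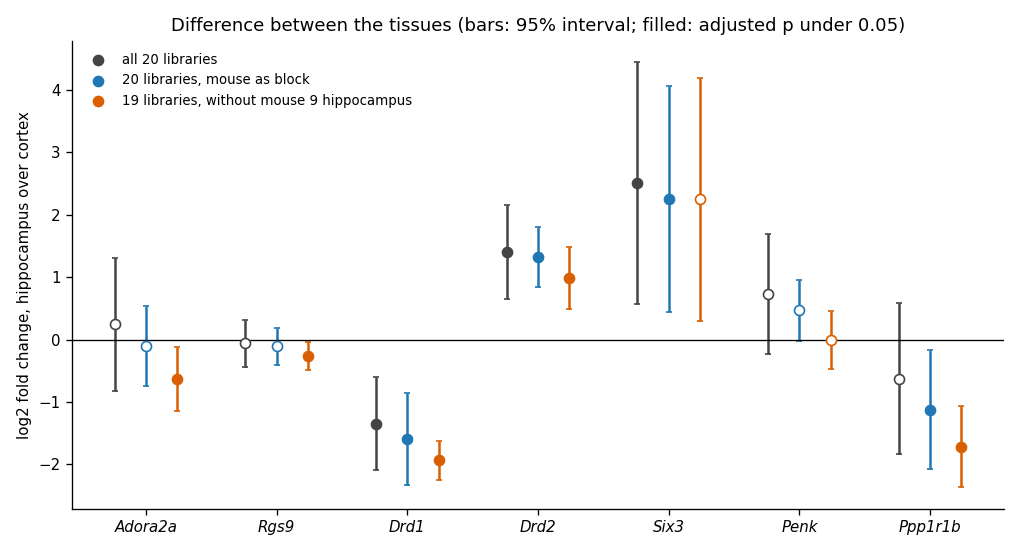
Log2 fold change of hippocampus over cortex for the 7 genes in 3 fits, with 95% confidence intervals; filled points had an adjusted *P* under 0.05. *Ppp1r1b* moves from -0.63 over all 20 libraries to -1.72 without the hippocampus library of mouse 9, while *Drd1* stays below 0 and *Drd2* above 0 in each.

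The hippocampus library of mouse 9 exceeded each of the other 9 in all 7 genes. Its ratio to the median of those 9 libraries was 2.86 in *Rgs9*, 5.79 in *Drd2*, 7.22 in *Drd1*, 10.1 in *Penk*, 13.4 in *Adora2a* and 18.1 in *Ppp1r1b*. For *Six3* the ratio was 56.9 to a median of 4 counts and 1.61 to the next library. Among the 14392 genes with a mean of at least 1 CPM in hippocampus, genes of chromosome Y left out, *Six3* ranked 4th by this ratio, taken with 0.1 CPM added to both levels, *Ppp1r1b* 7th, *Adora2a* 9th, *Penk* 16th, *Drd1* 31st, *Drd2* 39th and *Rgs9* 109th, where 1.88% of all these genes were above 2-fold and 11.6% were above all 9 other libraries. The levels also exceeded those in the cortex of the same mouse, by ratios from 1.69 for *Drd1* and 1.79 for *Rgs9* to 5.19 for *Drd2* and 11.5 for *Six3*. In that cortex library, the ratio to the median of the remaining cortex libraries was 2.95 in *Adora2a*, 2.52 in *Penk*, 2.03 in *Drd2*, 1.68 in *Ppp1r1b*, 1.39 in *Rgs9* and 1.05 in *Drd1*. For *Six3*, at 20 counts, it was 10.2.

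Other genes of striatal projection neurons were high in the same hippocampus library. Of 24 genes shared by both pathways, 23 reached a mean of 1 CPM in hippocampus, 20 of these were above all 9 other libraries and 13 were above 2-fold, with a median of 2.103, against a median of 0.999, 1.88% above 2-fold and 11.6% above the others over all genes. The retinoid receptors *Rxrg* and *Rarb* were at 48.3 and 28.5 CPM against at most 8.90 and 6.89. Of 8 direct pathway genes, *Isl1*, a transcription factor of direct pathway and cholinergic neurons, and *Slc35d3* reached a mean of 1 CPM only through this library, so they had to be high there, and *Isl1* had 130 counts against 0 to 40. With the filter set on the other 9 libraries, chosen after seeing the data, 3 of the 6 direct pathway genes left were above all others and 2 above 2-fold. Of the 5 indirect pathway genes at 1 CPM, 2 were above all others and 2 above 2-fold, namely *Gpr6* with a ratio of 3.58 and *Sp9* with 2.14. Of 24 dopamine, adenosine and opioid genes, 7 were above all others and 3 above 2-fold. *Lhx8*, a transcription factor of forebrain cholinergic neurons, had 97 counts there and 0 in each of the other 9 hippocampus libraries.

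Marker lists of other cell types moved to different degrees in that library, and their part in the result was not tested. The summed level of 8 hippocampal neuron genes was 498 CPM, below the other 9 (549 to 788), with 0 of 8 above the others, where 11.6% of all genes were. Interneuron genes summed to 1271 CPM (681 to 1036 in the others), with 6 of 9 above the others, *Gad2* and *Slc32a1*, which GABAergic projection neurons share, being past 2-fold. Genes of amygdala, endopiriform and claustrum neurons summed to 591 CPM (300.2 to 467), with 6 of 8 above the others and a median ratio of 1.815. Of these 8 genes, 3 were above 2-fold: *Foxp2* (6.89), *Meis2* (3.80), which the striatal list also holds, and *Otof* (2.20). *Foxp2*, at 36.4 CPM, was not above all others, which reached 85.0. Choroid plexus genes summed to 405 CPM, of which *Ttr*, the thyroid hormone carrier, made 324, within the range of the others (50.6 to 2060). Of its 7 genes, 0 were above all others but 4 were above 2-fold, with a median of 2.08, close to that of the shared striatal genes. Cholinergic and septal genes summed to 78.8 CPM (62.1 to 368, 1 of 6 above the others), neocortical genes to 677 (327 to 1104, 1 of 8), thalamic and habenular genes to 168 (118 to 1226, 1 of 8), genes of ganglionic eminence and subventricular zone cells to 134 (94.9 to 131, 3 of 7) and blood genes to 128 (97.9 to 199, 0 of 5). The cholinergic and septal list was mixed. *Chat* and *Lhx8*, left out of the 6 by their low mean, were above all others, as was *Slc18a3* (4.63 CPM, at most 2.39 elsewhere). *Slc5a7* was at 5.65 CPM, with a ratio of 5.04 to the median, against at most 6.76. The ratio was 1.65 for *Gbx2*, 0.874 for *Trpc4*, 0.799 for *Zic1* and 0.796 for *Zic4*. No list was at 0, and *Chat*, *Prox1*, *Tcf7l2*, *Ttr* and *Hbb-bs* were detected in every hippocampus library, *Chat* on as few as 1 count. Other listed genes had no count in some hippocampus libraries: *Lhx8* in 9, *Drd3* in 6, and *Isl1* and *Kcnj13* in 4 each.

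**Figure D3:**
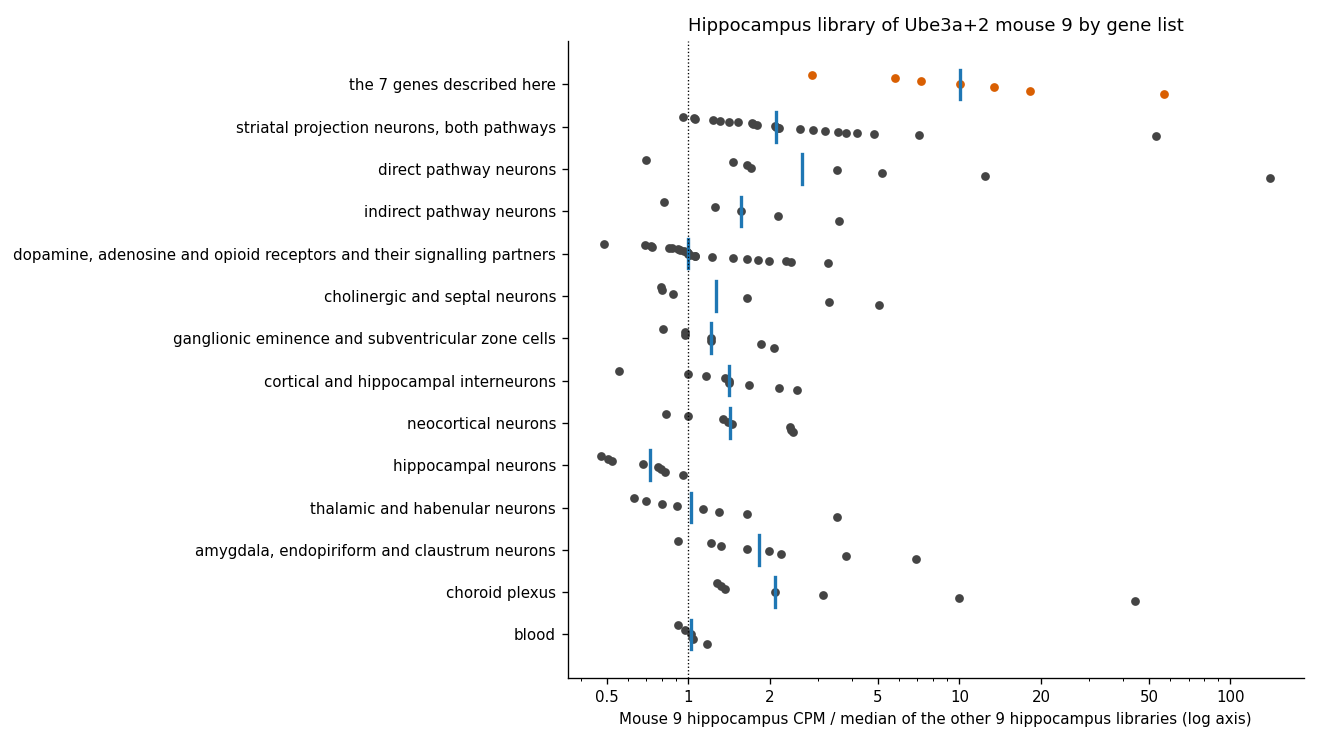
Level in the hippocampus library of *Ube3a*+2 mouse 9 divided by the median of the other 9 hippocampus libraries, on a log axis, for each gene with a mean of at least 1 CPM, by list; each point is 1 gene and the blue line the median of its list. The 7 genes, in orange, have a median of 10.1, the 23 other genes of both pathways 2.103, the 7 choroid plexus genes 2.08 and the 8 hippocampal genes 0.724.

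Co-variation in cortex was positive over all 10 libraries, and 3 pairs with *Penk* turned negative when 2 libraries were left out. Over the 10 cortex libraries, Pearson's r between the log2 levels of the 7 genes was above 0 for all 21 pairs, with a median of 0.62 and a range from 0.05 (*Drd1* with *Penk*) to 0.97 (*Adora2a* with *Six3*). For *Adora2a* and *Six3*, r was 0.97 (two-sided permutation *P* = 9e-05, adjusted over 42 relations 0.00210) and Spearman's rho 0.88 (permutation *P* = 0.00161, adjusted 0.0393), and without the 2 libraries farthest from the median of *Adora2a* r was 0.93. However, *Six3* rested on 0 to 20 counts here, and on 0 to 2 in mice 2, 4, 5, 7, 8 and 10. For *Drd1* and *Ppp1r1b*, r was 0.94 (permutation *P* = 0.00013, adjusted 0.00210) and rho 0.84 (permutation *P* = 0.00378, adjusted 0.0393), and r was 0.79 without the 2 farthest libraries. In all, 8 of the 21 pairs passed by r and 5 by rho, all in relations chosen with earlier results known. Without the 2 libraries farthest from the median of 1 gene of the pair, 3 pairs turned negative, all with *Penk*. These 3 relations thus rest on those libraries. Without the 2 farthest for *Adora2a*, *Rgs9* or *Penk*, the r of *Penk* went from 0.61 to -0.19 with *Adora2a*, from 0.47 to -0.46 with *Rgs9* and from 0.19 to -0.67 with *Ppp1r1b*. Without the 2 farthest for the other gene, it went from 0.05 to 0.47 with *Drd1*, from 0.62 to 0.76 with *Drd2* and from 0.66 to 0.50 with *Six3*. Without mouse 9 the median r was 0.50, 19 of 21 pairs were above 0, and 4 pairs passed by r and 0 by rho.

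A pair of overlapping groupings could be drawn in these cortex values from their extreme libraries. *Drd1*, *Ppp1r1b* and *Rgs9* shared their lowest library (mouse 8) and their second lowest (WT mouse 2), and WT mouse 3 was the highest in each. In contrast, *Adora2a*, *Drd2*, *Six3* and *Penk* had mouse 9 as the highest library. However, mouse 9 was second in *Ppp1r1b* and *Rgs9*, and WT mouse 3 was second in *Adora2a*, *Drd2* and *Penk*. Across the groupings r ran from 0.05 (*Drd1* with *Penk*) to 0.87 (*Adora2a* with *Rgs9*). Within them it ran from 0.61 (*Adora2a* with *Penk*) to 0.97 (*Adora2a* with *Six3*). The cortex library of mouse 8 had the lowest neocortical sum (1765 CPM), and that of WT mouse 2 had the lowest share of reads on genes (69.7%, against 76.0% to 80.1% in the other 9). Their part in the co-variation was not tested.

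In hippocampus the correlation rested on 1 library. Over all 10 libraries the median r of the 21 pairs was 0.91 and all were above 0, yet the median Spearman's rho was 0.16. Without mouse 9 the median r over 9 libraries was -0.06, with 9 of 21 pairs above 0. Here 1 pair, *Rgs9* with *Drd2*, passed by r (0.78, permutation *P* = 0.00238, adjusted over 42 relations 0.0303) and missed by rho (0.77, permutation *P* = 0.0213, adjusted 0.149). *Penk* was negatively correlated with *Drd2* in these 9 libraries (r = -0.76, permutation *P* = 0.0165, adjusted 0.0991), which failed the correction. In these 9 libraries *Drd2* rested on 38 to 82 counts and *Adora2a* on 56 to 103.

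**Figure D4:**
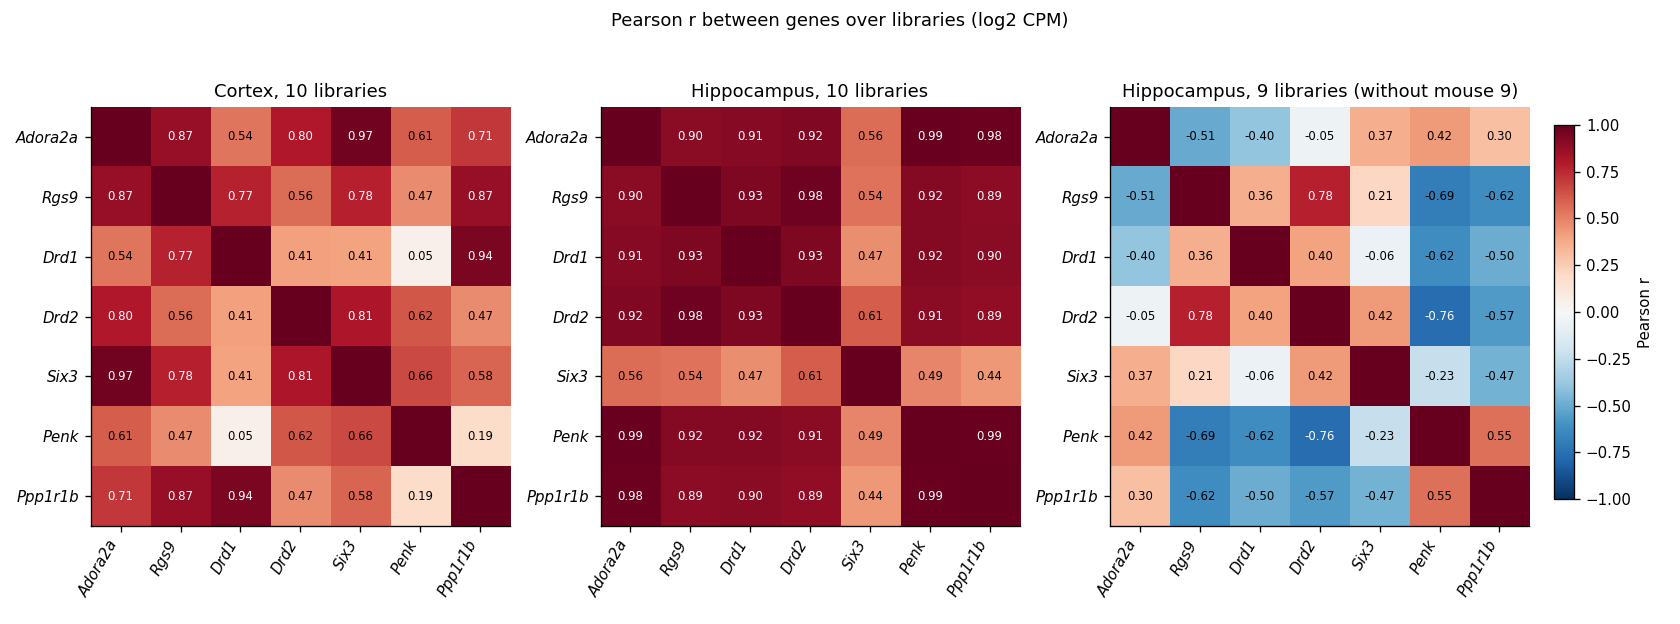
Pearson's r between the log2 CPM of each pair of the 7 genes over the 10 cortex libraries, the 10 hippocampus libraries and the 9 hippocampus libraries without mouse 9, on a colour scale from -1 to 1. The median of the 21 pairs is 0.62, 0.91 and -0.06.

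Between cortex and hippocampus of the same mouse, no co-variation passed the test with or without mouse 9, and so few mice can miss a moderate relation. Over 10 mice the median r of the 7 genes was 0.41, from -0.02 for *Drd1* to 0.68 for *Penk* (permutation *P* = 0.0780, adjusted over 7 relations 0.182), and 0 of the 7 passed. Spearman's rho for *Penk* was 0.01 (permutation *P* = 1). Without mouse 9 the median r was -0.28, from -0.53 for *Drd1* to 0.45 for *Ppp1r1b*, and 0 of 7 passed.

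Among all genes of the cortex libraries with a mean of at least 1 CPM, those most like the mean pattern of the 7 were looked up as a description. Of 14181 genes, 5 had an r above 0.9 over the 10 libraries. They were *Nexn*, an actin-binding protein (0.94), the retinoic acid binding protein *Crabp1* (0.93), *Ebf1*, a transcription factor of direct pathway neurons (0.93), *Dach1* (0.91) and the phosphodiesterase *Pde1b* (0.90), and the next 5 were *Nubpl*, *Pcp4l1*, *Ankrd63*, *Dzip3* and *Ttc41* (0.85 to 0.90). *Six3*, on 0 to 20 counts, had the widest log2 range of the 7 in cortex and so weighs most in this mean pattern. *Crabp1*, *Ebf1*, *Dach1*, *Pde1b*, *Ankrd63*, *Dzip3* and *Ttc41* were also among the 10 genes closest to *Six3* alone. *Crabp1* held 3.51, 0.971, 5.05, 1.09 and 0.746 CPM in WT and 3.49, 1.42, 1.61, 9.76 and 0.949 CPM in *Ube3a*+2 cortex, so WT mice 1 and 3 and *Ube3a*+2 mice 6 and 9 were again the high ones. *Nexn*, *Ebf1*, *Crabp1* and *Pcp4l1* were also among the 10 most alike without mouse 9. In hippocampus the most alike over 10 libraries were *Pde10a*, the main cyclic nucleotide phosphodiesterase of striatal projection neurons (0.98), *Pde7b*, *Ecel1*, *Stk32c*, *Ptpn5*, *Cd4*, *Ntn1*, *Rgs2*, *Gm10710* and *Scn4b* (0.94 to 0.96). Without mouse 9 they were *Oprk1*, *Hspb1*, *Tmie*, *6330409D20Rik*, *Zmat4*, *Prkch*, *Tmem176a*, *Vwc2*, *Ypel2* and *Gbx2* (0.97 to 0.99), and in these 9 libraries *Six3* had the widest range of the 7, from 0.0577 to 8.68 CPM.

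*Six3* parted from the other 6 genes in hippocampus and moved with thalamic markers in 3 of its 4 high libraries. *Tcf7l2*, a transcription factor of thalamic and habenular neurons, was at 226, 270 and 564 CPM in mice 4, 7 and 10, and at 46.1 in mouse 8, whose *Six3* of 0.472 CPM was the fifth highest. In the other 6 libraries *Tcf7l2* was 2.83 to 6.17 CPM, and this includes mouse 9, the highest in *Six3*. *Gbx2*, needed for thalamic neurons, was at 5.51, 14.9 and 20.3 CPM in mice 4, 7 and 10, 1.06 in mouse 8 and at most 0.578 in the others. The summed level of the 8 thalamic and habenular genes was 552, 653 and 1226 CPM in mice 4, 7 and 10, 248 in mouse 8 and 118 to 168 in the other 6. In cortex, where the thalamic sum was 82.3 to 126 CPM, *Six3* followed *Adora2a* instead. *Adora2a* was 4.46 to 5.91 CPM in the hippocampus of mice 4, 7 and 10 and 3.44 to 5.19 in the 6 libraries with less *Six3*. The part of thalamic tissue in the *Six3* values was not tested.

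**Figure D5:**
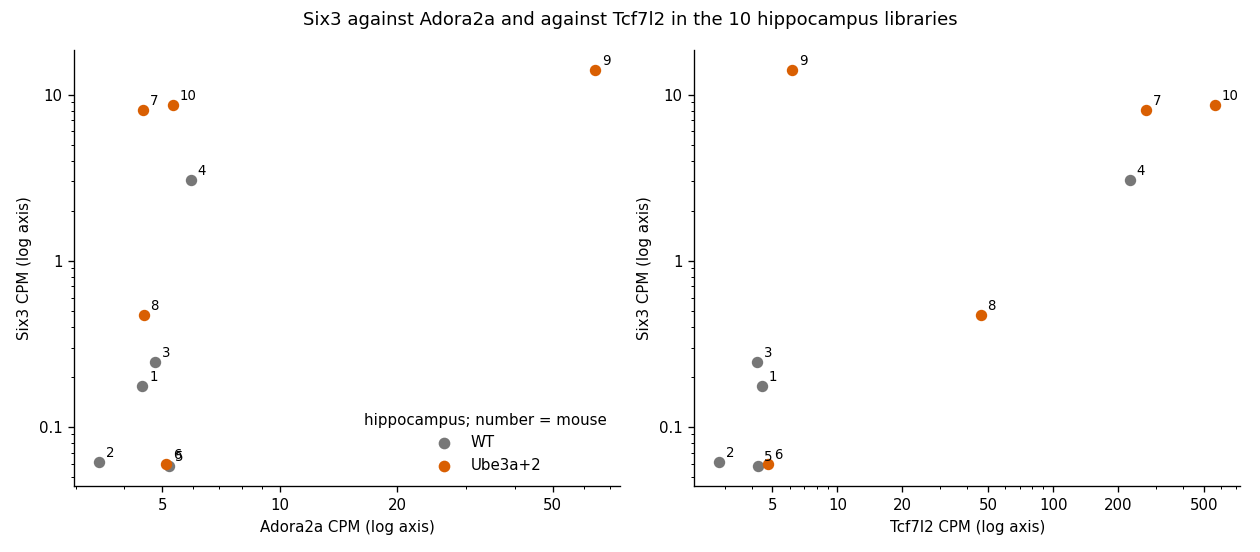
*Six3* against *Adora2a* and against *Tcf7l2* in the 10 hippocampus libraries, in CPM on log axes, with WT in grey and *Ube3a*+2 in orange and the mouse number beside each point. Mice 4, 7 and 10 have high *Six3* with *Tcf7l2* from 226 to 564 CPM and *Adora2a* from 4.46 to 5.91, and mouse 9 has high *Six3* with *Adora2a* at 64.2 and *Tcf7l2* at 6.17.

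Further genes of the same neurons were compared between the tissues from lists made for this purpose, beside 25.3% of all genes called as higher in hippocampus and 25.6% as higher in cortex. Of 24 genes shared by both pathways, 23 were tested, and 6 were higher in hippocampus (*Pde10a*, *Gad2*, *Ptpn5*, *Rasd2*, *Zfp503* and *Bcl11b*) and 6 higher in cortex (among them *Arpp19*, *Gnal*, *Meis2*, *Foxp1* and *Arpp21*), with a median log2 fold change of 0.09, against -0.01 over all genes. Without the hippocampus library of mouse 9 it was 6 and 9 of 23. *Bcl11b*, a transcription factor of striatal, deep cortical and hippocampal neurons, had a log2 fold change of 0.93 (SE 0.12, edgeR, adjusted *P* = 3.62e-06), and *Arpp21*, a cAMP-regulated phosphoprotein, had -0.61 (SE 0.11, edgeR, adjusted *P* = 0.000112). Of 8 direct pathway genes, 5 were higher in hippocampus (*Tac1*, *Pdyn*, *Ebf1*, *Eya1* and *Zfp521*) and 1 in cortex, the muscarinic receptor *Chrm4* (4 and 1 without that library). Of 6 indirect pathway genes in the files, 2 were higher in hippocampus (*Sp9* and *Nell1*) and 3 in cortex (*Gpr6*, *Grik3* and *Ptprm*), the same numbers as without it. The opioid peptide precursor *Pdyn*, the substance P precursor *Tac1* and *Ebf1* had log2 fold changes of 0.55, 1.01 and 0.97, the last losing its call with the mouse number as replicate block (0.84, edgeR, adjusted *P* = 0.0827) and in 7 of the 10 fits that left out a mouse.

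Of 29 dopamine, adenosine and opioid receptors and partners, 26 were tested, with 11 higher in hippocampus and 7 in cortex (11 and 8 without the hippocampus library of mouse 9). *Drd5*, the other stimulatory dopamine receptor, was higher in hippocampus by 2.57 (SE 0.17, edgeR, adjusted *P* = 4.30e-10), so it differed from *Drd1* in direction. The adenosine receptors *Adora2b* (0.70) and *Adora1* (0.14), the vesicular monoamine transporter *Slc18a2* (1.29) and *Pnoc* (1.22) were also higher in hippocampus, with *Ddc*, *Prkar1a*, *Rgs7bp*, *Pdyn*, *Ppp3ca* and *Maob*. The protein kinase A subunits *Prkar2b* (-1.19) and *Prkacb* (-0.69) were higher in cortex, as were *Pomc*, *Rgs7*, *Rgs11* and *Ppp1ca*. Between the genotypes, 0 genes of these 4 lists passed in either tissue or in the test of the difference between the tissues (edgeR, adjusted *P* under 0.05). Over the lists of other cell types, the region test called 7 of 8 hippocampal genes as higher in hippocampus and 5 of 8 neocortical genes as higher in cortex, or 7 and 7 without that library. It called as higher in hippocampus 6 of 7 thalamic and habenular genes, 4 of 5 cholinergic and septal genes, 5 of 7 choroid plexus genes, 3 of 8 eminence genes, 4 of 9 interneuron genes, 1 of 8 amygdala and claustrum genes and 0 of 5 blood genes, and as higher in cortex 3 amygdala and claustrum genes, 2 interneuron genes, 1 choroid plexus gene and 1 cholinergic gene. Without that library these counts differed in 3 lists, with 7 of 8 thalamic genes higher in hippocampus, 0 cholinergic genes of 6 higher in cortex and 1 eminence gene higher in cortex.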

How the data were processed

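RNA was extracted from dissected cortex and hippocampus with a column kit, and libraries were made with a stranded, poly(A)-selecting kit. The deposited files hold raw read counts per gene, which the authors made without normalization. The submitters' processing notes name HISAT2 2.1.0, HTSeq 0.11.2 and the build GRCm38 (mm10). The annotation and the strand setting of the counting are not given in the sources used here. Between 18.8% and 30.3% of read entries of a library were not counted on a gene (not aligned, not unique, ambiguous or outside genes) and were left out of library sizes.

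Symbols come from the files, and exon lengths, positions and overlaps from GENCODE M21, in which 47310 of the 47729 gene IDs were found. Counts were scaled by TMM factors to CPM. Genotype was tested within each tissue, and the tissues and the interaction over 20 libraries with 4 group means, with edgeR 4.0.16 (R 4.3.3; filterByExpr, robust quasi-likelihood F test), adjusted by Benjamini-Hochberg over all genes tested. The biological coefficient of variation was 12.1% in cortex and 14.9% in hippocampus. DESeq2 1.42.0, no filter, no TMM factors, labelled sex, a joint fit, the mouse as block and leaving out each mouse were alternatives. The labels give both libraries of a mouse 1 number, so the numbers pair them: deviations from the group means correlated above 0.1 in 9 of 10 mice (median 0.25, lowest -0.03). Correlations were taken on the log2 scale (prior count 2), with 100000 permutations each. The fits were tested on simulated data.

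The members and lists were chosen with earlier results of these data known. The genes named are the 7, from the pathway lists those that passed between the tissues, the 10 most like the mean of the 7 in each tissue, and markers named for the libraries they were high in, the last chosen after their values were seen. Mice were separate animals. A few genes of the lists are not reported here by name.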

Additional observations from a re-analysis of the deposited data

Results flagged for a closer look

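Of the 28 sets of 5 libraries (7 genes in 4 groups), 10 held a library at one end that lay apart from the remaining 4 by more than 0.71 of the whole range. For normally distributed values chance gives this in about 1 of 20 sets, or 1.4 here. CPM need not be normally distributed, and the 7 genes share their libraries, so the sets are not separate trials and 1.4 is a rough guide. Of the 10 sets, 6 were flagged by the hippocampus library of *Ube3a*+2 mouse 9. It was the highest in *Adora2a* (64.2 CPM), *Rgs9* (56.0), *Drd1* (33.3), *Drd2* (16.8), *Penk* (142) and *Ppp1r1b* (218). The cortex library of the same mouse was the highest *Ube3a*+2 cortex library in *Six3* (1.22 CPM, next 0.317) and *Penk* (30.1 CPM, next 14.5). *Ube3a*+2 mouse 8 was the lowest in cortex in *Drd1* (11.7 CPM, next 19.0), and WT mouse 4 the highest WT hippocampus in *Six3* (3.04 CPM, next 0.246).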

How the results depend on the processing

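At an adjusted *P* under 0.05, no member passed between the genotypes or in the interaction under any alternative run. In cortex 1 gene passed, and 5 with DESeq2. In hippocampus 1 gene passed, and 2 when labelled sex was a covariate. Between the tissues 3 members passed, 4 with the mouse number as replicate block (8737 of all genes, 7973 without the block), 5 without the hippocampus library of mouse 9, which was added after seeing the data, and 2 to 5 when a mouse or that library was left out. Without TMM factors, 4876 genes were higher in hippocampus and 2927 in cortex, against 3963 and 4010 with them. Some estimates changed sign. Without TMM factors the cortex genotype estimates were 0.011 for *Rgs9* and 0.0066 for *Drd1*, with the labelled sex that of *Penk* was -0.17, and with the replicate block *Adora2a* between the tissues was -0.10.

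Leaving out libraries changed the sign of further estimates, whose ranges follow on the log2 scale. For genotype in cortex they were -0.23 to 0.42 for *Adora2a*, -0.12 to 0.11 for *Rgs9*, -0.13 to 0.13 for *Drd1*, -0.43 to 0.25 for *Penk* and -0.15 to 0.43 for *Ppp1r1b*. For genotype in hippocampus they were -0.20 to 1.23 for *Drd1* and -0.21 to 2.25 for *Ppp1r1b*. Between the tissues they were -0.64 to 0.37 for *Adora2a*, -0.26 to 0.021 for *Rgs9* and -0.0093 to 0.84 for *Penk*. For the interaction they were -0.17 to 1.88 for *Adora2a*, -0.19 to 1.26 for *Drd1*, -0.37 to 0.68 for *Drd2* and -0.27 to 2.26 for *Ppp1r1b*. The median correlation of the pairs was -0.060 to 0.93 in hippocampus, and between tissues it was -0.28 to 0.51. Of the log2 fold changes of the members and of the pathway genes named, 427 kept their direction and their side of the threshold when a mouse was left out, 22 changed sign, 40 lost a call and 1 gained one. Under the other settings these numbers were 215, 10, 10 and 3. The cause was not tested. At this depth, counting error is largest for *Six3* and *Drd2* in cortex.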

Other observations

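The genes whose level followed *Six3* most closely over the 10 hippocampus libraries were looked up after its pattern was seen, as a description over 14396 genes. They were *P2ry1*, a purinergic receptor (r = 0.97), *Esrrg*, an orphan nuclear receptor (0.96), *Metrn* (0.96), *Fuom* (0.96), *Vwc2* (0.96), *Arhgef16* (0.95), *Nexn* (0.95), *Gm16702* (0.95), *Pcp4l1* (0.95) and *Cdkn1c* (0.94). None of the 10 was among the other 6 striatal projection neuron genes or the 8 listed thalamic and habenular genes. Both lists are too short beside 14396 genes for this to show that a relation is absent. *Arhgef16*, for instance, was at 2.18, 3.38, 2.44 and 7.24 CPM in mice 4, 7, 9 and 10 and at 0.650 in mouse 8. In the other 5 it was 0.173 to 0.369. *Nexn* was at 3.67, 11.2, 11.6 and 11.0 CPM in mice 4, 7, 9 and 10, at 2.95 in mouse 8 and at 0.246 to 0.655 in the other 5. *Nexn* and *Pcp4l1* were also among the genes closest to the 7 in cortex.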
